A study of Larimichthys crocea with 4 samples.

Results

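The transcriptome of large yellow croaker (Larimichthys crocea) liver after 12 h of cold stress was set against that of liver under normal feeding, the control with no treatment. Liver total RNA of 4 conditions was sequenced as 1 library each, namely cold stress for 12 h, thermal stress for 12 h, fasting for 21 d and normal feeding, and the reads were assembled into unigenes, that is assembled transcript sequences. The comparison used the fragment counts of the cold stress and normal feeding libraries and kept every unigene with 10 or more fragments in at least 1 of them, which held 41173 of 57216 unigenes. Fragments were also summed over all unigenes that carry the same KEGG orthology (KO) number, the authors' assignment of a unigene to a gene function, and 5228 of 5468 such sums passed the same minimum. The normal feeding and fasting livers came from 6 fish each. The stress temperatures, the number of fish behind the cold stress library and whether the stressed fish were fed are not given in the sources used here. With 1 library per condition there was no replicate error, so no test was possible, and a difference below is one between 2 libraries. A gene is called here when the libraries differ at least 2-fold.

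Fish do not hold a constant body temperature, so cooling acts directly on the membranes, enzymes and protein folding of the liver. Desaturases that put double bonds into fatty acids keep membranes fluid in the cold, and cholesterol content is adjusted as well. As in other vertebrates, stress in fish raises cortisol, which acts through the glucocorticoid receptor on liver genes of amino acid breakdown and glucose output, while thyroid hormone and insulin-like growth factor set growth and metabolic rate.

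The cold stress library held 97.3% as many fragments as the normal feeding library, so depth was nearly equal, and 51939 unigenes in cold stress and 53847 in normal feeding had at least 1 fragment. All 10 hepatocyte markers were detected, and together they took 8.68% of fragments in cold stress and 11.4% in normal feeding, so the liver label was met by its markers. The list of digestive enzymes, mostly products of the exocrine pancreas, which lies inside or along the liver in many bony fish, took 5.19% in cold stress, 3.87% in thermal stress, 9.30% in fasting and 3.73% in normal feeding. One of its 11 sums, triacylglycerol lipase, was led by the hepatic lipase LIPC (92.4% of fragments), a product of hepatocytes. Red blood cell genes took 0.0561% in cold stress and 0.0814% in normal feeding, and lymphocyte and antigen presentation genes 0.184% in cold stress and 0.176% in normal feeding. In whole tissue, fewer cells of a type and less RNA per cell cannot be told apart, and the part of these shares in the results was not tested. The 10 most abundant unigenes took 22% of fragments in cold stress and 26.1% in normal feeding, and scaling by trimmed means (TMM), which sets most genes to no difference, lowered every log2 ratio by 0.26. Of the reads placed by the authors, 56.5% in cold stress and 60.0% in normal feeding fitted several places, so sums over unigenes free of this problem (under 50% of placed reads fitting several places, called clean here) are given for the genes named below whose call they moved. C4B, CYP4V2, CYP8B1, DBP, DDOST, G6PC, HAL, haptoglobin, HSPB1, HYOU1, NDUFS8, SLC25A48, SOCS2, TDO2 and TSC22D3 passed 2-fold with no clean unigene to check the value.

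Of the 41173 unigenes, 11745 (28.5%) were at least 2-fold higher and 7696 (18.7%) at least 2-fold lower in cold stress. With TMM scaling the counts were 9365 (22.7%) higher and 9461 (23%) lower. Of the 5228 KO sums, 929 (17.8%) were higher and 495 (9.47%) lower, and TMM scaling turned this excess of higher sums round, to 623 (11.9%) higher and 713 (13.6%) lower. Higher sums thus made up 65.2% of those past 2-fold by library totals and 46.6% with TMM. The median log2 ratio of cold stress over normal feeding was 0.21 over all KO sums, or -0.04 with TMM, and the middle 90% ran from -1.44 to 1.85. At 4-fold, 219 sums (4.19%) were higher and 118 (2.26%) lower. Against the same normal feeding library, 7.3% of 5204 KO sums were at least 2-fold higher and 11.4% lower in thermal stress, and 10.5% of 5223 were higher and 21.9% lower in fasting. Values below are by library totals unless TMM is named. A signed number in brackets after fragment counts is the log2 ratio of cold stress over normal feeding. List medians are to be read against 0.21, and counts of list members past 2-fold against 17.8% higher and 9.47% lower. With TMM those shares are 11.9% and 13.6%.

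**Figure D1:**
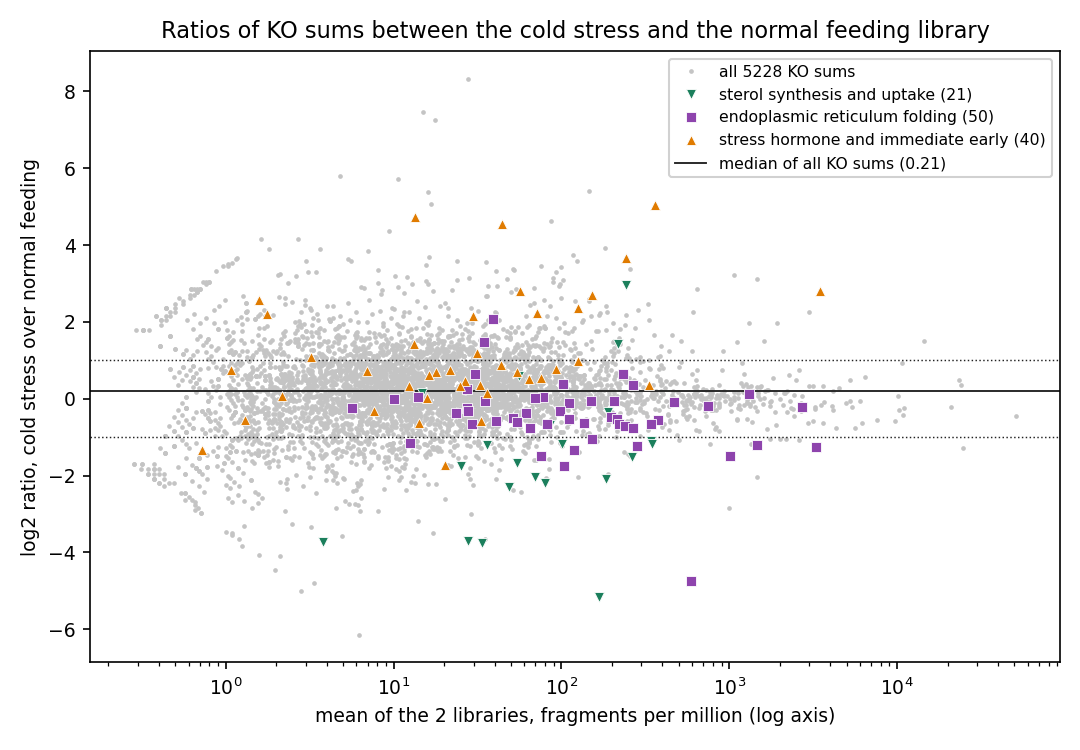
Log2 ratio of cold stress over normal feeding (vertical axis, library totals) against the mean CPM of the 2 libraries (horizontal log axis, fragment counts scaled to a common library total) for 5228 KO sums, in gray, with the sterol, endoplasmic reticulum and stress hormone genes in color. The solid line is the median of all sums (0.21) and the dotted lines mark 2-fold, with 929 sums above and 495 below them; most sterol genes (triangles pointing down) lie below the lower line.

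Most of the 37 gene lists had medians near that of all sums, and a few stood apart. Sterol synthesis and uptake (21 sums kept, median -1.53) and the endoplasmic reticulum (50 sums of folding, translocation and glycosylation, median -0.42) had the lowest medians of the 37, the second of these carried by 25 sums of translocation and glycosylation (median -0.52) and not by the other 25 (median -0.06). Highest, next to the 4 islet hormone genes described below, were the stress hormone and immediate early genes (40 sums, median 0.74), ribosome biogenesis (75 sums, median 0.69), DNA replication and cell cycle (21 sums, median 0.69) and autophagy and lysosome (36 sums, median 0.61). Cytosolic ribosomal proteins stood near 1:1, with none of 79 past 2-fold. The lists were assembled with results of these data already known, so their counts describe and do not test.

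**Figure D2:**
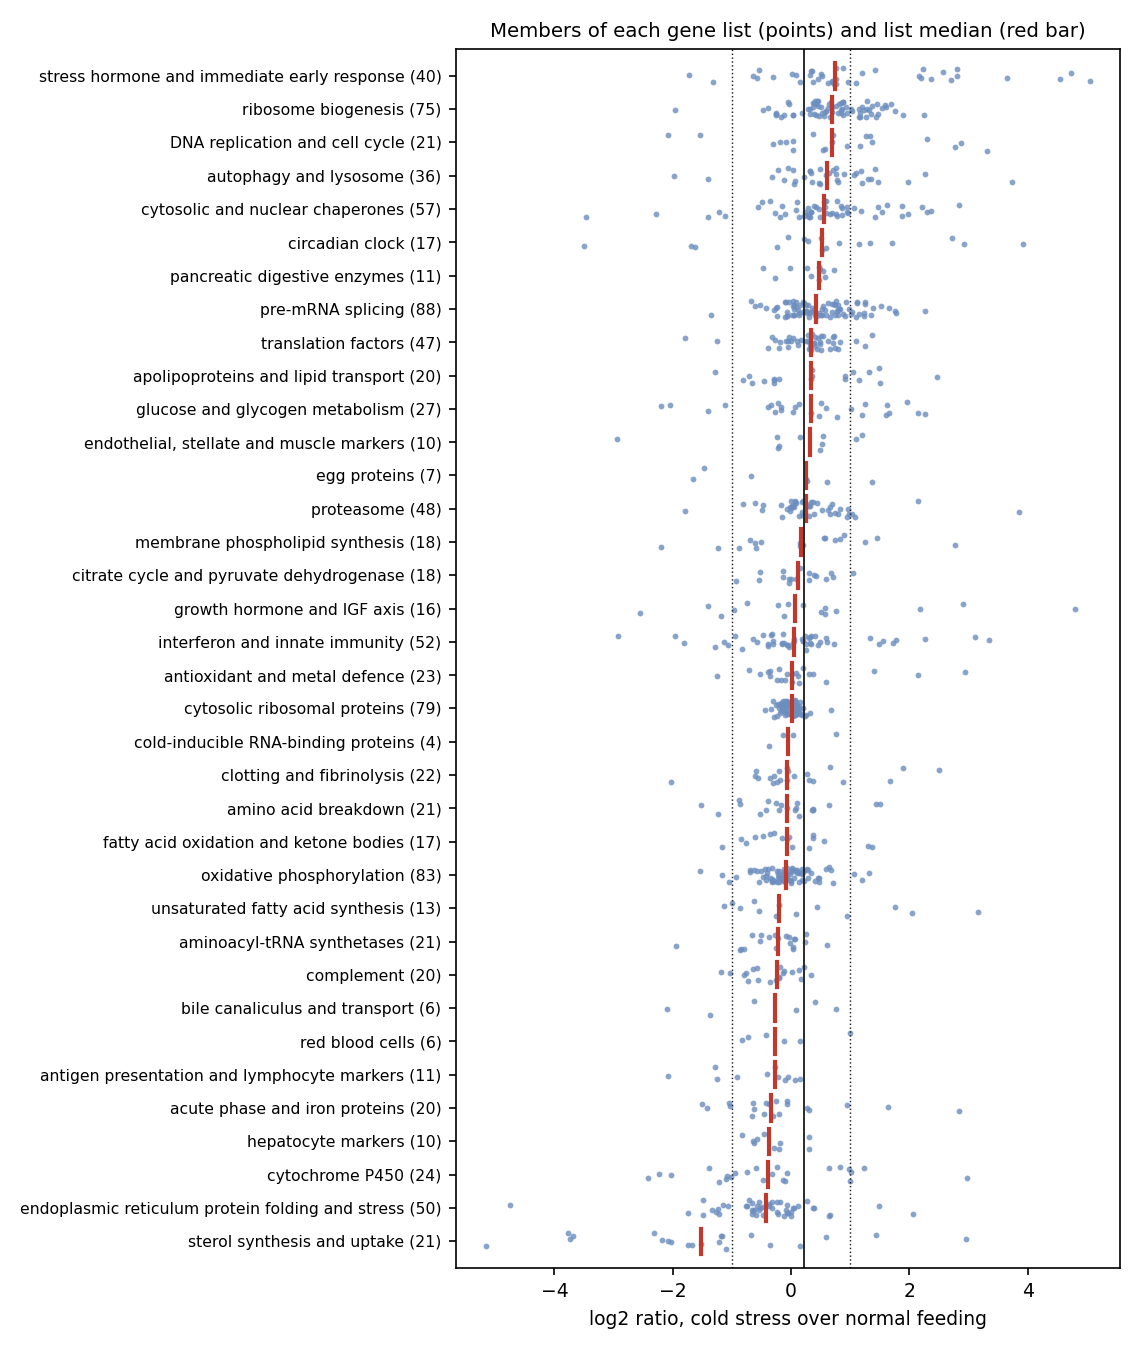
Median log2 ratio of cold stress over normal feeding by library totals (horizontal axis, red bar) for each gene list except the islet hormones, with every kept member as a point and the number of members in brackets. The sterol list lies farthest to the left at -1.53, the solid line is the median of all KO sums (0.21) and the dotted lines mark 2-fold.

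The genes of cholesterol synthesis were lower in cold stress throughout the pathway. All 17 enzyme sums were below 1:1, 15 of them at least 2-fold, with a median log2 ratio of -1.74, and 18 of the 21 sums of the list lay below the median of all sums. The share at least 2-fold lower over all sums was 9.47%. FDPS, which makes farnesyl diphosphate, had the largest difference, with 157 fragments in cold stress and 5734 in normal feeding, or 5.1 FPKM in cold stress and 182 FPKM in normal feeding, a scale corrected for unigene length and library size. This is a 35.5-fold lower value, with a log2 ratio of -5.15 and a counting interval of -5.39 to -4.92. All intervals given here are 95% intervals of counting error only and hold no variation between fish. Next came FDFT1, the squalene synthase, at 79 fragments in cold stress and 1103 in normal feeding (13.6-fold lower). MVD, which decarboxylates mevalonate diphosphate, had 68 in cold stress and 902 in normal feeding (12.9-fold lower). MVK, the mevalonate kinase, had 9 fragments in cold stress and 123 in normal feeding.

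The other enzymes of the pathway differed less. HMGCS1, which makes the precursor of mevalonate, had 3725 fragments in cold stress and 8202 in normal feeding (log2 ratio -1.10). IDI1, the isomerase that feeds FDPS, had 1207 fragments in cold stress and 5228 in normal feeding (-2.08). SQLE, the squalene epoxidase, had 491 fragments in cold stress and 2298 in normal feeding (-2.19). LSS, which closes the rings to lanosterol, had 280 in cold stress and 1425 in normal feeding (-2.31). CYP51, which removes a methyl group from lanosterol, had 467 in cold stress and 1958 in normal feeding (-2.03). MSMO1 at -0.35 and DHCR7, the last step of one branch, at -0.68 were the enzymes under 2-fold.

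Normal feeding was the highest of the 4 libraries for all 17 enzymes. Summed over them, there were 1083 CPM (fragment counts scaled to a common library total) in cold stress, 191 in thermal stress, 184 in fasting and 3047 in normal feeding. Every comparison of the series shares this normal feeding library, so how far the values rest on it cannot be told apart from the treatments. The regulators did not share this direction. INSIG1, which holds the sterol sensor in the endoplasmic reticulum, had 7272 fragments in cold stress and 962 in normal feeding, 7.77-fold higher (log2 ratio 2.96, interval 2.86 to 3.06), although no clean unigene was available for it. SREBF2, the transcription factor of the pathway, had 1139 in cold stress and 780 in normal feeding (0.59). INSIG2 had 264 in cold stress and 245 in normal feeding (0.15).

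**Figure D3:**
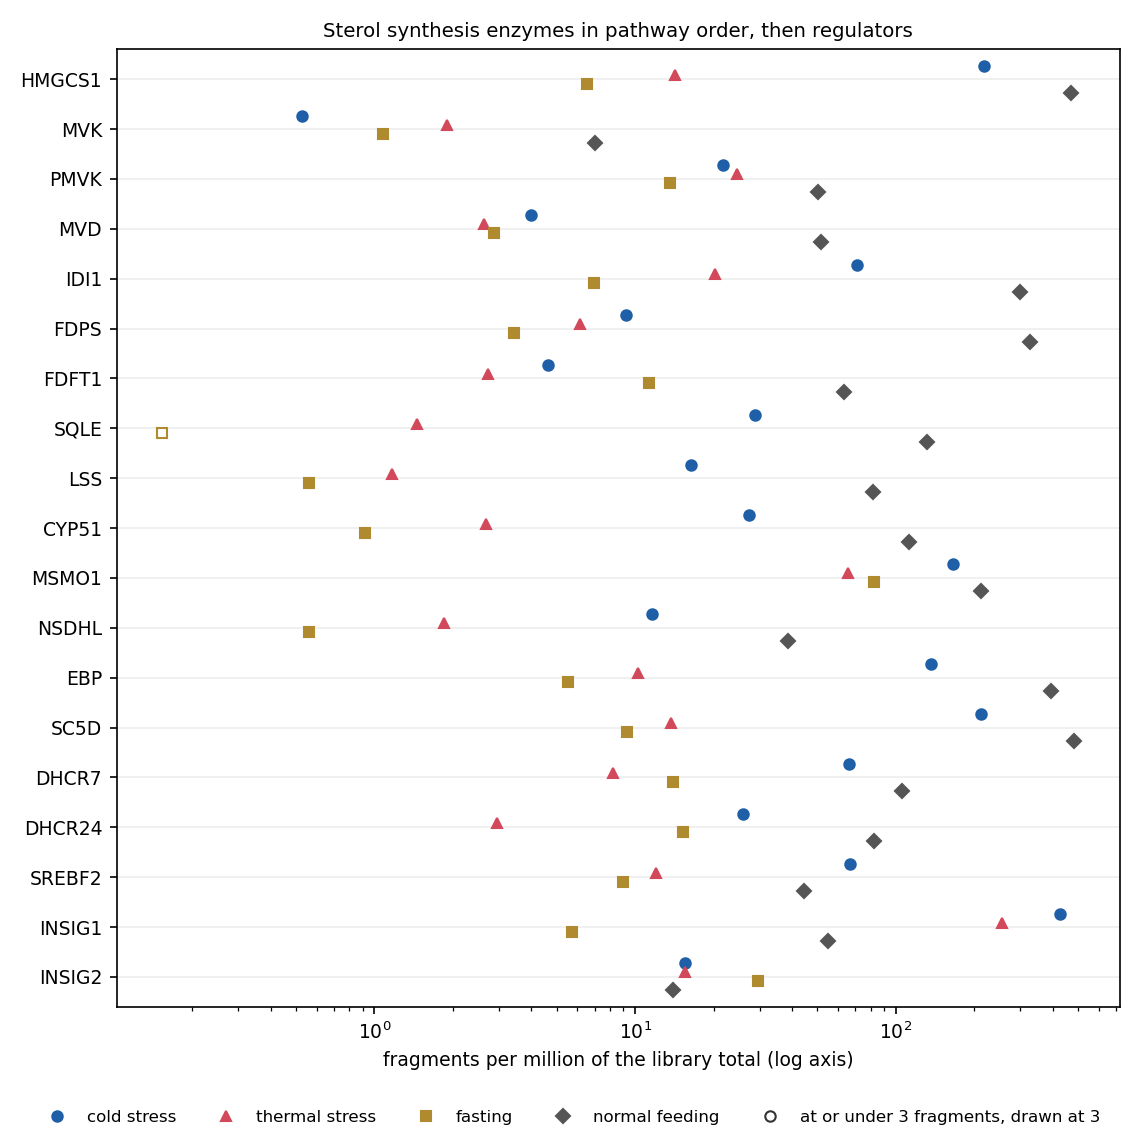
CPM (horizontal log axis, fragment counts scaled to a common library total) in the cold stress, thermal stress, fasting and normal feeding libraries for sterol synthesis enzymes in pathway order, followed by regulatory genes; an open symbol marks a value at or under 3 fragments. Normal feeding is the rightmost point for every enzyme drawn, while INSIG1 and SREBF2 are farthest right in cold stress.

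Several abundant chaperones of the endoplasmic reticulum were lower in cold stress, the genes for moving proteins across its membrane were slightly lower as a set, and the remaining members varied widely. Of 50 sums, 2 were at least 2-fold higher and 10 lower, against 17.8% and 9.47% over all sums. In this list 43 lay below the median of all sums. HSPA5 (BiP), the main HSP70 chaperone of this compartment, had 723 fragments in cold stress and 19917 in normal feeding, 26.8-fold lower (log2 ratio -4.74, interval -4.85 to -4.64), or 15.9 FPKM in cold stress and 427 FPKM in normal feeding. HSPA5 stood at 56077 fragments in thermal stress and 728 in fasting. HSP90B1 (GRP94), the HSP90 of the compartment, had 32812 fragments in cold stress, 230733 in thermal stress, 12913 in fasting and 81053 in normal feeding (-1.27). Calreticulin (CALR), a lectin chaperone, had 14938 in cold stress and 35619 in normal feeding (-1.21). PDIA4, a disulfide isomerase, had 8958 in cold stress and 25919 in normal feeding (-1.49).

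The cochaperones of BiP shared the direction. HYOU1, its nucleotide exchange factor, had 681 fragments in cold stress and 1954 in normal feeding (-1.48). SDF2L1, a factor bound to these J proteins, had 1153 in cold stress and 3000 in normal feeding (-1.34). The 3 J proteins that serve BiP were all lower. DNAJC3 had 2216 fragments in cold stress and 6002 in normal feeding (-1.40). DNAJC10 had 244 in cold stress and 580 in normal feeding (-1.21). DNAJB11 had 929 in cold stress and 2064 in normal feeding (-1.11). CRELD2, a secreted stress-induced factor, had 812 in cold stress and 2794 in normal feeding (-1.74). SEL1L, which holds together the complex that removes misfolded proteins from the compartment, had 48 fragments in cold stress and 555 in normal feeding (-3.49).

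Not all members went this way. ERO1L, the oxidase that renews disulfide isomerases, had 1081 fragments in cold stress and 265 in normal feeding (2.07). HERPUD2 had 865 in cold stress and 317 in normal feeding (1.49). The transcription factors of the stress response stayed under 2-fold, with XBP1 at 0.37, ATF4 at 0.65, ATF6 at -0.32 and DDIT3 (CHOP), a factor of stress-induced cell death, at -0.06. The most abundant disulfide isomerase, P4HB, was at -0.22. The 25 sums of the signal recognition particle, the translocon, the oligosaccharyltransferase and the signal peptidase had a median of -0.52, with 24 below 1:1 and 2 at least 2-fold lower, DDOST (-1.24) and SEC11A (-1.06). The other 25 sums, which hold the chaperones, had a median of -0.06, with 14 below 1:1, 2 at least 2-fold higher and 8 lower. Together they had 7531 CPM in cold stress, 28290 in thermal stress, 4165 in fasting and 13962 in normal feeding.

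**Figure D4:**
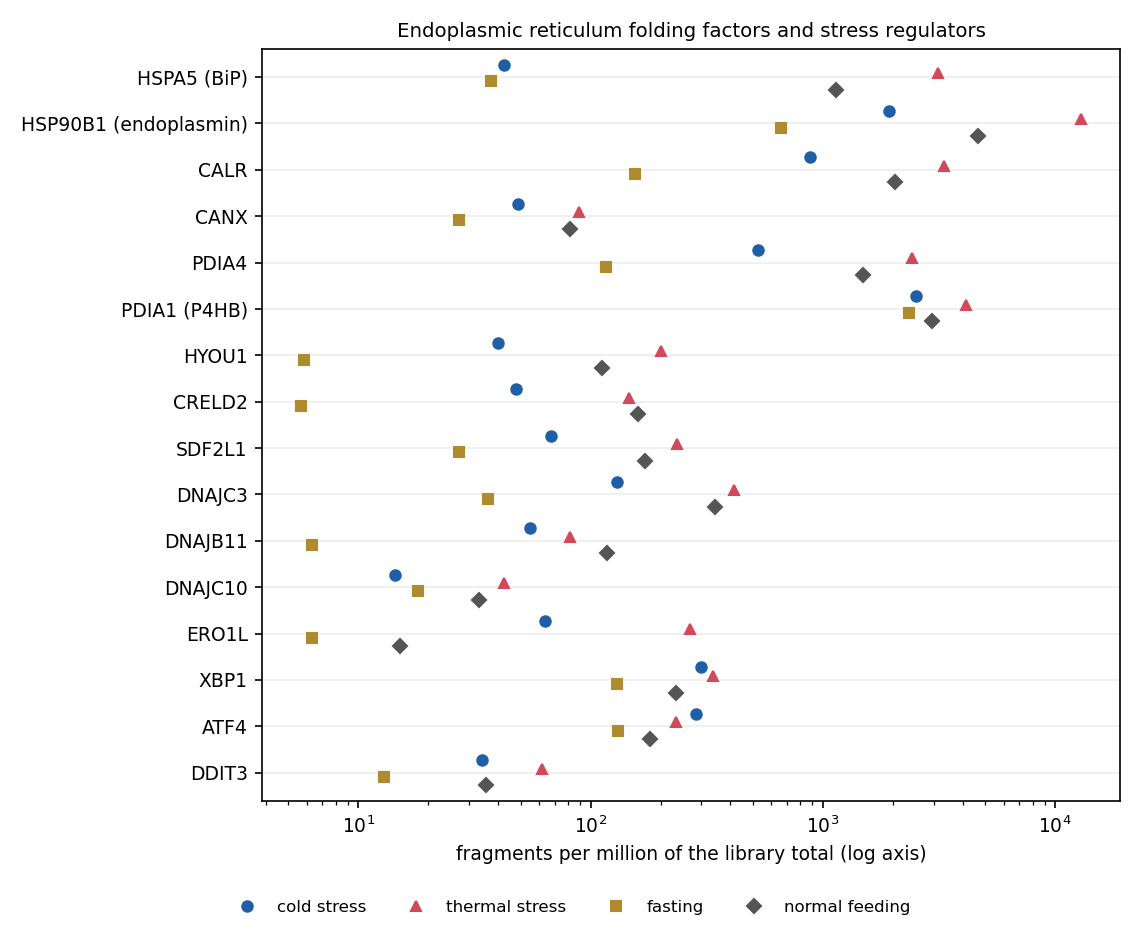
CPM (horizontal log axis, fragment counts scaled to a common library total) in the cold stress, thermal stress, fasting and normal feeding libraries for genes of protein folding in the endoplasmic reticulum. For HSPA5, HSP90B1, CALR and PDIA4 the order from high to low is thermal stress, normal feeding, then cold stress.

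Chaperones of the cytosol and nucleus were mostly above 1:1. Without the 3 J proteins of the endoplasmic reticulum, 13 of 54 sums were at least 2-fold higher and 2 lower, with a median of 0.57. The shares over all sums were 17.8% and 9.47%. The J proteins DNAJA2 (6660 fragments in cold stress and 2364 in normal feeding, log2 ratio 1.53) and DNAJA1 (798 in cold stress and 208 in normal feeding, 1.98) both deliver clients to cytosolic HSP70. HSPA4, an HSP70 exchange factor, had 3054 fragments in cold stress and 1376 in normal feeding (1.19). All 8 subunits of the CCT ring, the chaperonin of actin and tubulin, lay between 0.30 and 0.95. The abundant cytosolic HSP70 and HSP90 stayed near 1:1. The cytosolic HSP70 sum (HSC70 type) had 23002 fragments in cold stress and 18655 in normal feeding (0.34, or 0.08 with TMM). Cytosolic HSP90 had 37737 in cold stress and 35187 in normal feeding (0.14, turning to -0.12 with TMM). HSPB1, a small heat shock protein, had 65 fragments in cold stress, 1292 in thermal stress, 153 in fasting and 24 in normal feeding (1.48). The small heat shock protein hsp30 had 15 fragments in cold stress, 2094 in thermal stress and none in fasting or normal feeding.

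Cold-inducible RNA-binding proteins stayed under 2-fold. CIRBP, the cold-inducible member best known from cooled mammalian cells, had 1208 fragments in cold stress, 259 in thermal stress, 626 in fasting and 729 in normal feeding (log2 ratio 0.77, or 0.51 with TMM), with 99% of its reads fitting several places. YBX1, a cold shock domain protein, was at 0.04. The median of the 4 members was -0.05.

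In the list of unsaturated fatty acid synthesis, 3 of 13 sums were at least 2-fold higher and 1 was lower, so the shares were near those over all sums (17.8% and 9.47%). SCD, the delta-9 desaturase that makes oleic acid, had 9127 fragments in cold stress, 4754 in thermal stress, 1312 in fasting and 2266 in normal feeding, 4.14-fold higher in cold stress. Its 2 larger contigs had 6313 and 2224 fragments in cold stress against 1383 and 430 in normal feeding, but most of their reads fitted several places, and the clean contig had 580 fragments in cold stress and 448 in normal feeding (0.41). ELOVL5, which lengthens polyunsaturated fatty acids, had 367 fragments in cold stress and 42 in normal feeding (3.17). The long-chain acyl-CoA synthetase sum (ACSL), which activates fatty acids, had 4233 in cold stress and 1282 in normal feeding (1.76). The FADS2 sum of front-end desaturases had 11529 in cold stress, 31206 in thermal stress, 10692 in fasting and 6161 in normal feeding (0.94). However, 99.9% of the fragments of that sum came from a unigene that matches a cytochrome b5. The list also holds genes of saturated fatty acid synthesis, and none of those named next was at least 2-fold higher. FASN, the fatty acid synthase, had 2140 fragments in cold stress and 2073 in normal feeding (0.09). ELOVL6 had 466 in cold stress and 874 in normal feeding (-0.87). ACACA, the acetyl-CoA carboxylase, was lower by the sum (-1.14) and 0.33 over clean unigenes.

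Of 18 genes of membrane phospholipid synthesis, 3 were at least 2-fold higher and 2 lower, with a median of 0.18 (-0.08 with TMM), so the shares were near those over all sums (17.8% and 9.47%). The third higher sum was ISYNA1, of inositol synthesis, at 20 fragments in cold stress and none in normal feeding. Both phosphatidylserine synthases were higher. PTDSS1 had 75 fragments in cold stress and 28 in normal feeding (1.46). PTDSS2 had 320 in cold stress and 138 in normal feeding (1.25). ETNK1, an ethanolamine kinase, had 82 in cold stress and 388 in normal feeding (-2.20). LPCAT3, which puts polyunsaturated chains into phospholipids, had 100 in cold stress and 241 in normal feeding (-1.23). CHKA, the choline kinase, had 2306 in cold stress and 1332 in normal feeding (0.83).

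Glucocorticoid-responsive genes were among the largest differences. Of the 40 stress hormone and immediate early genes, 15 were at least 2-fold higher and 2 lower, and 31 lay above the median of all sums. Over all sums, 17.8% were higher and 9.47% lower. DDIT4 (REDD1), an inhibitor of the growth kinase mTORC1, had 11882 fragments in cold stress, 20013 in thermal stress, 139 in fasting and 369 in normal feeding, 33.1-fold higher in cold stress (log2 ratio 5.05). The KLF sum led by KLF9, a factor induced by both glucocorticoid and thyroid hormone, had 7650 in cold stress and 626 in normal feeding (3.65). TAT, tyrosine aminotransferase, the classical glucocorticoid-induced liver enzyme, had 104150 in cold stress and 15296 in normal feeding (2.81), which is 3060 FPKM in cold stress and 437 FPKM in normal feeding. FKBP5, the immunophilin that restrains the glucocorticoid receptor, had 4488 in cold stress and 708 in normal feeding (2.70), with 92% of its reads fitting several places and no clean unigene. The wider KO sum that FKBP5 shares with FKBP4 was at 2.22 and at -0.31 over clean unigenes.

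Other responders followed. SGK1, a kinase of ion transport, had 3580 fragments in cold stress, 1421 in thermal stress, 162 in fasting and 716 in normal feeding (2.36). A second KO sum of the SGK family had 160 in cold stress and 545 in normal feeding (-1.73). CEBPD, a transcription factor of the acute phase, had 2004 in cold stress and 439 in normal feeding (2.23). TSC22D3 (GILZ), which mediates glucocorticoid effects on immune cells, had 745 in cold stress and 334 in normal feeding (1.20). PPARGC1A, the coactivator of mitochondrial and gluconeogenic genes, had 438 fragments in cold stress, 20 in thermal stress, 57 in fasting and 17 in normal feeding (4.73). The immediate early genes were mixed. The KO sum whose best hit is FOSL2 had 1453 in cold stress and 64 in normal feeding (4.54). FOS itself had 453 in cold stress and 690 in normal feeding (-0.57). The receptor gene NR3C1 had 190 fragments in cold stress and 304 in normal feeding (-0.64).

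**Figure D5:**
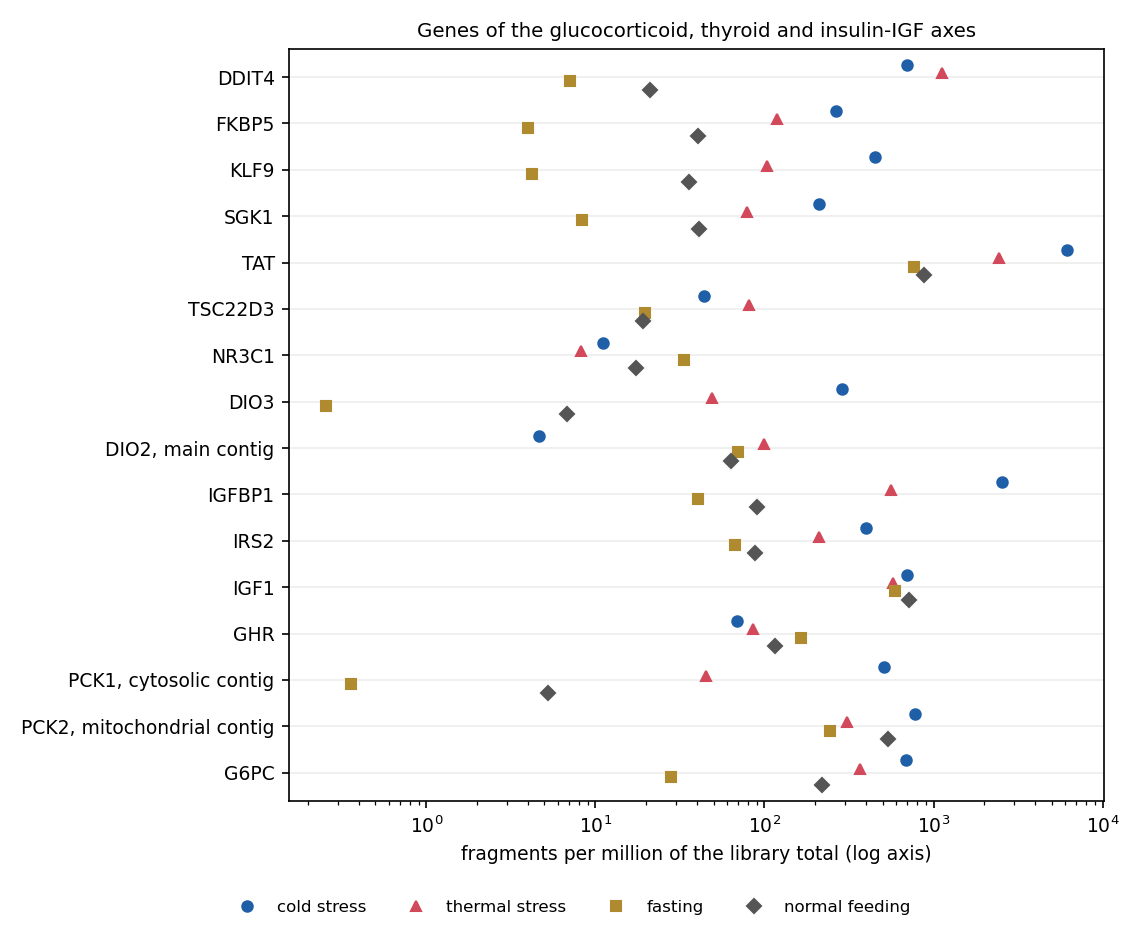
CPM (horizontal log axis, fragment counts scaled to a common library total) in the cold stress, thermal stress, fasting and normal feeding libraries for genes of the glucocorticoid, thyroid, insulin-like growth factor and glucose axes. DIO3, IGFBP1, KLF9 and TAT are farthest right in cold stress, and the main contig of DIO2 is farthest left there.

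The deiodinases, which switch thyroid hormone on and off, differed in opposite directions. DIO3 is represented by a single unigene and DIO2 by its main contig, picked out after their values were seen. DIO3, which inactivates the hormone, had 4885 fragments in cold stress, 879 in thermal stress, 5 in fasting and 119 in normal feeding, 42.2-fold higher in cold stress (log2 ratio 5.40, interval 5.14 to 5.67), or 225 FPKM in cold stress and 5.32 FPKM in normal feeding. DIO2, which converts thyroxine to the active hormone, had 88 in cold stress, 1797 in thermal stress, 1420 in fasting and 1133 in normal feeding, 12.5-fold lower (-3.65). By these contigs, DIO3 was higher in cold stress than in each of the other 3 libraries, and DIO2 lower. The receptor gene THRB had 25 fragments in cold stress and 112 in normal feeding.

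In the growth hormone and insulin-like growth factor (IGF) axis, 3 of 16 genes were at least 2-fold higher and 3 lower. The share of higher genes was near that over all sums (17.8%), and the share of lower genes was above it (9.47%). The genes past 2-fold were binding proteins and signal modifiers, and the hormones were not among them. IGFBP1, which binds IGF and rises with stress and food deprivation in fish, had 43126 fragments in cold stress, 10096 in thermal stress, 789 in fasting and 1590 in normal feeding (log2 ratio 4.80). All 3 of its contigs were higher, with 28268, 6906 and 7952 fragments in cold stress against 1169, 42 and 379 in normal feeding. Of the other binding proteins, IGFBP3 was under 2-fold with 32 in cold stress and 22 in normal feeding (0.58), while IGFBP4 and IGFBP5 were lower. IGFBP4 had 936 in cold stress and 2196 in normal feeding (-1.19). IGFBP5 had 48 in cold stress and 288 in normal feeding (-2.55). The insulin receptor substrate sum had 6807 in cold stress and 1540 in normal feeding (2.18), and its IRS2 unigene 4495 in cold stress and 757 in normal feeding. SOCS2, which dampens growth hormone signalling, had 321 in cold stress and 44 in normal feeding (2.91). IGF1 itself had 11809 fragments in cold stress and 12550 in normal feeding (-0.05), and IGF2 was at -0.22. The growth hormone receptor sum GHR had 1178 in cold stress and 2018 in normal feeding (-0.74, or -0.76 over clean unigenes). Its most abundant unigene, with 48.0% of the fragments, had 245 in cold stress and 1289 in normal feeding (-2.36).

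Glucose metabolism held 9 of 27 genes at least 2-fold higher and 4 lower, against 17.8% and 9.47% over all sums. The cytosolic PCK1-type contig of phosphoenolpyruvate carboxykinase, the entry to gluconeogenesis, had 8726 fragments in cold stress and 92 in normal feeding (log2 ratio 6.61). The mitochondrial-type contig had 13228 in cold stress and 9373 in normal feeding (0.54). These contigs were separated after their values were seen, and their sum was at 1.25. G6PC, which releases free glucose, had 11767 in cold stress, 6569 in thermal stress, 550 in fasting and 3813 in normal feeding (1.67). A sum of pyruvate dehydrogenase kinases led by PDK2, which shut off that enzyme, had 5243 in cold stress and 1127 in normal feeding (2.26). PDK1 had 118 in cold stress and 263 in normal feeding (-1.12). FBP1, the fructose-bisphosphatase, was near 1:1 with 7346 fragments in cold stress and 8440 in normal feeding (-0.16).

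By library totals, some genes of glucose use were also among the higher ones. LDHA, lactate dehydrogenase, had 1199 fragments in cold stress and 403 in normal feeding (1.61). Hexokinase had 541 in cold stress and 243 in normal feeding (1.19). Pyruvate kinase had 777 in cold stress and 397 in normal feeding (1.01). TMM, which lowered every log2 ratio by 0.26, put hexokinase and pyruvate kinase under 2-fold. GYS2, the liver glycogen synthase, had 904 in cold stress and 302 in normal feeding (1.62), but -0.17 over clean unigenes. Of the 7 SLC2A carriers kept, 3 were at least 2-fold lower. SLC2A2 (GLUT2), the main carrier of hepatocytes, had 564 in cold stress, 486 in thermal stress, 2849 in fasting and 1541 in normal feeding (-1.41). SLC2A9, which also carries urate, had 73 in cold stress and 310 in normal feeding (-2.05). SLC2A11 had 14 in cold stress and 66 in normal feeding (-2.20).

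Of 17 circadian clock genes, 6 were at least 2-fold higher and 3 lower, against 17.8% and 9.47% over all sums. The hours at which the livers were taken are not given in the sources used here. NFIL3, a repressor of the clock output, had 5801 fragments in cold stress, 1281 in thermal stress, 717 in fasting and 394 in normal feeding (log2 ratio 3.92). The cryptochrome sum CRY, of the negative limb, had 2896 in cold stress and 393 in normal feeding (2.92). NR1D1 (REV-ERB alpha) had 249 in cold stress and 39 in normal feeding (2.71). ARNTL (BMAL1), of the positive limb, had 156 in cold stress and 49 in normal feeding (1.71). The output activators were split. TEF had 525 fragments in cold stress and 215 in normal feeding (1.33, or 0.36 over clean unigenes). DBP had 3 in cold stress and 35 in normal feeding (-3.50, counting interval -5.85 to -1.84). The period sum PER stayed under 2-fold (0.82), and the best hit of the CLOCK sum (1.15) is not CLOCK but SBNO2.

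Many genes that build ribosomes were higher in cold stress, while the ribosomal proteins themselves stood near 1:1. Of 75 ribosome biogenesis sums, 24 were at least 2-fold higher and 1 lower, with 62 above the median of all sums, and 16 higher and 1 lower with TMM (median 0.43). The shares over all sums were 17.8% and 9.47%, or 11.9% and 13.6% with TMM. Members of the UTP and U3 particles, which process the small subunit precursor, had a median of 0.87, with 10 of 24 higher. WDR43, of this group, had 3045 fragments in cold stress and 920 in normal feeding (1.77). EBNA1BP2, of large subunit assembly, had 2113 in cold stress and 585 in normal feeding (1.89). Fibrillarin (FBL), the methyltransferase of ribosomal RNA, had 2170 in cold stress and 1095 in normal feeding (1.03). Nucleolin (NCL) had 8689 in cold stress and 4849 in normal feeding (0.88). None of 79 cytosolic ribosomal proteins passed 2-fold, and their log2 ratios ran from -0.44 to 0.68 with a median of 0.01, which TMM moved to -0.25. RPL5 had 43830 fragments in cold stress and 48473 in normal feeding, and RPS25 had 47531 in cold stress and 46774 in normal feeding.

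Of 88 splicing factors, 17 were at least 2-fold higher and 1 lower, with a median of 0.41, and 7 were higher and 1 lower with TMM. The count of higher members was near the share over all sums (17.8%), and with TMM below it (11.9%). The PRPF proteins of the spliceosome core had 8 of 22 higher and a median of 0.70. SYF2, of the catalytic spliceosome, had 2090 fragments in cold stress and 826 in normal feeding (1.38). SF3A1 had 856 in cold stress and 305 in normal feeding (1.53). SNRNP200, the helicase that unwinds U4 from U6, had 888 in cold stress and 424 in normal feeding (1.11). The HNRNPK sum, whose most abundant unigene matches the RNA-binding protein vigilin (HDLBP), had 14232 in cold stress and 15691 in normal feeding (-0.10).

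Among translation factors, 3 of 47 were higher and 2 lower, with a median of 0.35 (0.09 with TMM). The shares over all sums were 17.8% and 9.47%. The EIF4E sum of cap-binding proteins, led by EIF4E3, had 10528 fragments in cold stress and 4551 in normal feeding (1.25). EIF1B, of start codon selection, had 9570 in cold stress and 3799 in normal feeding (1.37). EIF6, which keeps the subunits apart, had 1128 in cold stress and 544 in normal feeding (1.09). The elongation factors EEF1A (-0.05) and EEF2 (0.10) were near 1:1. Of 21 aminoacyl-tRNA synthetases none was at least 2-fold higher and 1 was lower, with a median of -0.21, and 18 lay below the median of all sums. EARS2 of mitochondria was that one, with 31 in cold stress and 122 in normal feeding (-1.94).

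Of 36 autophagy and lysosome genes, 11 were at least 2-fold higher and 2 lower, with a median of 0.61. The shares over all sums were 17.8% and 9.47%. CTSL, the protease cathepsin L, had 84049 fragments in cold stress, 29697 in thermal stress, 8436 in fasting and 17954 in normal feeding (log2 ratio 2.27), or 3326 FPKM in cold stress and 660 FPKM in normal feeding. All 14 subunits of the V-ATPase, the pump that acidifies the lysosome, were above 1:1 (0.35 to 1.98), 7 of them at least 2-fold, although ATP6AP1 (1.47) was at 0.62 over clean unigenes. Summed over the subunits, there were 759 CPM in cold stress, 404 in thermal stress, 261 in fasting and 416 in normal feeding, and cold stress was the highest library for 13 of 14. The light chain sum MAP1LC3, whose products coat the autophagosome, had 1354 fragments in cold stress and 548 in normal feeding (1.34). The cargo receptor SQSTM1, counted with the antioxidant genes, had 1240 in cold stress and 166 in normal feeding (2.94, or 1.49 over clean unigenes). The ULK sum of kinases that start autophagy, led by ULK2, had 3698 in cold stress and 285 in normal feeding (3.74), but 94% of its reads fitted several places and the clean value was 0.49. Cathepsins E (-1.40) and O (-1.98) were lower.

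Proteasome subunits had 4 of 48 at least 2-fold higher and 1 lower, against 17.8% and 9.47% over all sums. Their median of 0.25 was near that of all sums. PSMD2 (1674 fragments in cold stress and 813 in normal feeding, 1.08) and PSMD7 (1583 in cold stress and 792 in normal feeding, 1.04) belong to the regulatory particle. The largest value, PSMC2 at 224 fragments in cold stress and 16 in normal feeding (3.85), rested on reads of which 96% fitted several places. PSMA6 of the core was at 0.05.

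Of 21 DNA replication and cell cycle genes, 8 were higher and 2 lower, against 17.8% and 9.47% over all sums. Inhibitors of cell cycle kinases were among the higher ones. CDKN1C (p57) had 2050 fragments in cold stress and 287 in normal feeding (log2 ratio 2.88). CDKN1A (p21) had 303 in cold stress and 124 in normal feeding (1.33). So were genes of DNA replication and of ribonucleotide reductase. The helicase subunit MCM7 had 413 in cold stress and 189 in normal feeding (1.17). The ribonucleotide reductase subunit RRM1 had 147 in cold stress and 63 in normal feeding (1.26). The sum of its subunit M2, led by RRM2B with 52.4% of fragments, was at 1.36. PCNA, the replication clamp, had 134 fragments in each library, and CCNE1, cyclin E of entry into S phase, had 6 in cold stress and 18 in normal feeding.

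Plasma proteins made by hepatocytes went both ways. Angiotensinogen, an abundant example picked out after its values were seen, had 364476 fragments in cold stress and 132951 in normal feeding (log2 ratio 1.49). Another abundant unigene, picked out in the same way, had 243268 in cold stress and 612616 in normal feeding (-1.29). Its best hit is collectin-12, and whether it codes for a plasma protein of hepatocytes was not tested. None of the 20 complement genes was at least 2-fold higher, 2 were lower, and 19 lay below the median of all sums (median -0.23, or -0.49 with TMM). C3, the central component, had 132818 fragments in cold stress and 204285 in normal feeding (-0.58). C4B had 8056 in cold stress and 18724 in normal feeding (-1.18). The other lower sum, annotated MASP1 (-1.04), was made up to 93.2% of a haptoglobin unigene, which is counted again with the acute phase genes and is part of the complement share. Complement took 3.24% of fragments in cold stress, 4.06% in thermal stress, 1.69% in fasting and 4.53% in normal feeding. That share also holds the ficolin sum, made up to 93.2% of a unigene whose best hit is MFAP4, a microfibril-associated glycoprotein. The ficolin sum had 4203 CPM in cold stress, 5724 in thermal stress, 259 in fasting and 7082 in normal feeding. Of 20 acute phase and iron genes, 2 were higher and 4 lower, against 17.8% and 9.47% over all sums. Haptoglobin, which binds free hemoglobin, had 21904 in cold stress and 46147 in normal feeding (-1.04). Hemopexin, which binds heme, had 19225 in cold stress and 40755 in normal feeding (-1.04). Transferrin (TF) had 732239 in cold stress and 1029474 in normal feeding (-0.45).

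The iron hormone hepcidin differed by copy. The entry HEPC had 36330 fragments in cold stress, 76526 in thermal stress, 762 in fasting and 11931 in normal feeding (1.65). HEPC1 had 3894 in cold stress, 7090 in thermal stress, 5952 in fasting and 10708 in normal feeding (-1.42). Ferritin heavy chain had 240228 in cold stress and 128676 in normal feeding (0.94). In clotting, 3 of 22 were higher and 1 lower, against 17.8% and 9.47% over all sums. KLKB1, plasma kallikrein, was the lower one, with 9818 in cold stress and 41008 in normal feeding (-2.02). The tissue factor gene F3, which starts clotting, had 212 in cold stress and 68 in normal feeding (1.68).

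Apolipoproteins themselves differed little. APOA1, of high-density lipoprotein, had 328957 fragments in cold stress and 391069 in normal feeding (log2 ratio -0.21). APOE had 459538 in cold stress and 369589 in normal feeding (0.35), and APOB was at -0.28. Among the 20 genes of lipid transport, 6 were at least 2-fold higher and 1 lower, against 17.8% and 9.47% over all sums. FABP10A, the liver basic fatty acid-binding protein, had 40327 in cold stress and 14613 in normal feeding (2.84-fold higher). Lipoprotein lipase (LPL) had 5782 in cold stress and 2684 in normal feeding (1.15). Its inhibitor ANGPTL4 had 6371 in cold stress and 3174 in normal feeding (1.04). TMM put LPL (0.89) and ANGPTL4 (0.79) under 2-fold. DGAT1, which completes triglycerides, had 554 in cold stress and 203 in normal feeding (1.49, or 0.46 over clean unigenes). The lipin sum, led by LPIN2, was at 2.47 but at -0.68 over clean unigenes, and that of phosphatidate phosphatase at 1.33 but at -0.46. Clean unigenes held 575 of 9484 lipin fragments and 722 of 4985 phosphatidate phosphatase fragments in cold stress. By the most abundant unigene these sums were at 3.20 and 3.37. FABP7 was lower (54 in cold stress and 136 in normal feeding, -1.29).

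Cytochrome P450 genes were lower more often than higher, 8 against 3 of 24, with 17 below the median of all sums, and 10 against 1 with TMM. Over all sums, 9.47% were lower and 17.8% higher, or 13.6% and 11.9% with TMM. CYP8B1, which sets the makeup of bile acids, had 1032 fragments in cold stress and 2473 in normal feeding (-1.22). CYP27A1, a mitochondrial sterol hydroxylase, had 210 in cold stress and 460 in normal feeding (-1.09). CYP4V2, a fatty acid hydroxylase, had 96 in cold stress and 461 in normal feeding (-2.22). CYP7A1, the rate-limiting enzyme of bile acid synthesis, had 177 in cold stress and 91 in normal feeding (1.00 after rounding). It lay just under 2-fold and is not among the 3 higher genes. The most abundant, CYP3A, had 28282 in cold stress and 61557 in normal feeding (-1.08), with 94% of reads fitting several places and a clean value of 0.04. CYP1A1, a target of the aryl hydrocarbon receptor, had 3997 in cold stress and 4502 in normal feeding (-0.13). Of 6 genes in the list of bile canaliculus and transport, most of them aquaporins, 2 were lower, with a median of -0.27. ABCB11, the bile salt export pump, had 697 fragments in cold stress and 423 in normal feeding (0.76). AQP7, a water and glycerol channel, had 264 in cold stress and 1154 in normal feeding (-2.09), and AQP1, a water channel, had 60 in cold stress and 160 in normal feeding.

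The lists of fuel oxidation had medians near 1:1. Fatty acid oxidation had 2 of 17 higher and 1 lower (median -0.07), the citrate cycle 1 of 18 higher (median 0.11), and oxidative phosphorylation 3 of 83 higher and 3 lower (median -0.09, with 65 below the median of all sums). The shares over all sums were 17.8% higher and 9.47% lower. The higher calls of CPT1A (1.37, clean 0.04), which admits fatty acids to mitochondria, of PPARA (1.31, clean -2.13), its regulator, and of OGDH (1.05, clean -0.66) were not kept by clean unigenes. Those clean unigenes held few of the cold stress fragments, 16 of 817 for CPT1A, 6 of 603 for PPARA and 153 of 1340 for OGDH. By the most abundant unigene, CPT1A was at 2.62, PPARA at 1.53 and OGDH at 2.43. In the respiratory chain, the complex IV subunits COX6B1 (6080 fragments in cold stress and 2508 in normal feeding, 1.32) and COX4 (5808 in cold stress and 2868 in normal feeding, 1.06) were higher. Subunits of complex I went both ways. NDUFV2 had 1157 in cold stress and 517 in normal feeding (1.20). NDUFS8 had 513 in cold stress and 1091 in normal feeding (-1.05). The mitochondrially encoded MT-CO1 (-0.12) and MT-ND4 (-0.57) were under 2-fold.

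Of 21 genes of amino acid breakdown, 2 were higher and 2 lower, against 17.8% and 9.47% over all sums. TDO2, tryptophan dioxygenase, another enzyme induced by glucocorticoids in mammals, had 5351 fragments in cold stress and 2036 in normal feeding (1.43), with 99.8% of its reads fitting several places. CDO1, which oxidises cysteine, had 12930 in cold stress and 4704 in normal feeding (2.83-fold higher). Histidase (HAL) had 234 in cold stress and 687 in normal feeding (-1.51). Antioxidant and metal defence had 3 of 23 higher and 1 lower (median 0.01), to be read against the same shares. Heme oxygenase (HMOX) had 1750 in cold stress and 680 in normal feeding (1.40). PRDX5, a peroxiredoxin, had 183 in cold stress and 448 in normal feeding (-1.25). Metallothionein (MTB) had 28059 in cold stress and 36871 in normal feeding (-0.35).

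Of 52 interferon and innate immunity sums, 8 were at least 2-fold higher and 6 lower, with a median of 0.05, so the shares were near those over all sums (17.8% and 9.47%). MX, the antiviral GTPase induced by interferon, had 1449 fragments in cold stress, 21 in thermal stress, 112 in fasting and 173 in normal feeding (log2 ratio 3.11). IRF7, the factor that amplifies the interferon response, had 25 in cold stress, 242 in thermal stress, 237 in fasting and 195 in normal feeding (-2.92). TLR2, a receptor for bacterial lipoproteins, had 249 in cold stress and 25 in normal feeding (3.36). CXCL9 had 686 in cold stress and 1549 in normal feeding (-1.14). TLR5, the flagellin receptor, was abundant and under 2-fold (-0.30).

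Most markers of other cells stayed under 2-fold. Of 11 antigen presentation and lymphocyte genes none was higher and 3 were lower, all with few fragments such as CD3G (9 in cold stress and 22 in normal feeding), and none of 6 red blood cell genes passed 2-fold. Of 10 endothelial, stellate and muscle genes, 2 were higher, the collagen genes COL1A1 (108 in cold stress and 52 in normal feeding) and COL1A2 (92 in cold stress and 41 in normal feeding), and 1 was lower, MYH3 of skeletal muscle (39 in cold stress and 307 in normal feeding, -2.94). TMM put COL1A1 (0.84) and COL1A2 (0.95) under 2-fold. The COL1A1 call rested on its most abundant contig, with 71 fragments in cold stress and none in normal feeding. Shares over all sums were 17.8% higher and 9.47% lower. Of 7 genes in the egg protein list, which also holds the estrogen receptors ESR1 and ESR2, 1 was higher and 2 were lower. The egg envelope gene ZP3 had 220 fragments in cold stress, 2943 in thermal stress, 102740 in fasting and 712 in normal feeding. The whole list, receptors included, took 0.00764% of fragments in cold stress, 1.47% in fasting and 0.00957% in normal feeding. ESR2 alone gave 37.6 CPM of this in cold stress, 60.5 in fasting and 31.4 in normal feeding.

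Hormone genes of the pancreatic islet appeared in cold stress and hardly in normal feeding. This list was drawn up after the values were seen. Glucagon (GCG) had 940 fragments in cold stress, 5596 in thermal stress, none in fasting and 3 in normal feeding (log2 ratio of cold stress over normal feeding 8.33, interval 6.78 to 10.61). Insulin (INS) had 595 in cold stress, 511 in thermal stress, none in fasting and 4 in normal feeding (7.26, interval 5.89 to 9.14). Somatostatin (SST) had 163 fragments in cold stress, 390 in thermal stress, none in fasting and 1 in normal feeding. Its ratio was 5.80 against the floor of 3 fragments and 7.39 (interval 4.89 to 12.70) against the 1 fragment itself. Peptide YY (PYY) had 511 in cold stress, 2 in thermal stress and none in fasting or normal feeding, at least 175-fold higher against a floor of 3 fragments per library. Together they gave 2209 fragments in cold stress and 8 in normal feeding. None of the 11 digestive enzyme sums passed 2-fold in cold stress (median 0.48, or 0.22 with TMM), and their share was highest in fasting, where no islet hormone fragment was found. Trypsin had 463859 in cold stress and 342687 in normal feeding. Whether more pancreatic tissue entered the cold stress sample was not tested.

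Among the 12 largest differences in each direction, several genes belong to none of the lists above. GUCY2F, a guanylate cyclase known from photoreceptors, had 356 fragments in cold stress and 7 in normal feeding (log2 ratio 5.71). Proenkephalin (PENK), an opioid precursor, had 530 in cold stress and 13 in normal feeding (5.39). GPSM2, of spindle orientation, had 552 in cold stress and 17 in normal feeding (5.06). The fast muscle troponin TNNI2 had 303 in cold stress and 15 in normal feeding (4.38). In the other direction, an r-opsin sum, of light sensing, had no fragments in cold stress, thermal stress or fasting and 217 in normal feeding, at least 70.4-fold lower in cold stress. HNF4B, a hepatocyte nuclear factor, had 4 in cold stress and 114 in normal feeding (-4.79), with 98% of reads fitting several places. GDF15, a stress-induced cytokine, had 13 in cold stress and 160 in normal feeding (-3.58). The polyamine oxidase PAOX had 10 in cold stress and 103 in normal feeding (-3.32).

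Unigenes with no KO number but with a named best hit were ranked by the same ratio. Of 2921 that qualified, AVPI1, a protein induced by vasopressin, had 2545 fragments in cold stress and 124 in normal feeding (log2 ratio 4.40). SLMO2, of lipid transfer in mitochondria, had 4109 in cold stress and 229 in normal feeding (4.20). The RNA-binding protein RBM47 had 752 in cold stress and 90 in normal feeding (3.10). Next to them stood IFT20 (3.82), YDJC (3.58), THAP4 (3.46), ENDOD1 (3.42) and ROGDI (3.19). The lowest ratio was that of a unigene similar to the craniofacial development protein CFDP2, with 15 in cold stress and 483 in normal feeding (-4.97). A retrovirus-related Pol polyprotein had 41 in cold stress and 711 in normal feeding (-4.08). SPIN1, a histone reader, had 18 in cold stress and 265 in normal feeding (-3.84). The magnesium transporter NIPAL4 had 68 in cold stress and 851 in normal feeding (-3.61). CMTM8 (-3.12) and PDLIM2 (-3.10) followed. Of the 148 genes and sums named by rule that passed 2-fold, 126 did so with TMM as well, and the other 22 kept their direction.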

How the data were processed

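Liver RNA of 4 conditions was sequenced on an Illumina HiSeq 2000, 1 library each, and the cold stress library was compared with normal feeding. Groups were taken from the sample labels. The methods of the study describe the fasting and normal feeding livers, and the cold stress library is known from its labels alone. The authors assembled the reads de novo (SOAPdenovo and Trinity are both named), annotated unigenes by BLASTx and KO number, and deposited fragment counts per unigene, which are not normalized. Depth was 17020100 fragments in cold stress, 17918349 in thermal stress, 19529986 in fasting and 17494043 in normal feeding. The authors also deposited FPKM values, which were recomputed from counts, lengths and totals to within 5e-05, and used for size alone. Deposited coverage tables gave the counts of reads fitting 1 or several places. The aligner is not given in the sources used here. Unigene lengths had a median of 402 bp. Tables of the authors' comparisons hold their fold changes and p-values and were not used. No column of values from other libraries was left aside.

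Counts were divided by library totals. Unigenes and KO sums with 10 or more fragments in either library were kept (1 unigene with a malformed KO entry was left out of the sums), a value at or under 3 was set to 3, and 2-fold was the size for a call. Ratios of single genes carry exact counting intervals (95%) from the binomial share of both counts. Alternatives were TMM (edgeR 4.0.16) and DESeq2 1.42.0 size factors, totals without digestive enzymes and hemoglobin, a minimum of 100 or 1, 4-fold, 0.5 fragments added, contig clusters, clean unigenes, the median unigene per KO number, and the most abundant unigene. Code ran in Python 3.11.15 (numpy 2.4.6, pandas 2.3.3, scipy 1.17.1, matplotlib 3.10.9) and R 4.3.3, and was tested on simulated data. Genes were named by rule: the 12 largest differences each way among KO sums with 100 or more fragments, in each of the 37 lists the up to 4 most abundant members past 2-fold and the 2 most abundant of all, the 8 largest each way among unigenes with no KO number, and CIRBP, SCD and HSP70. Other genes and single contigs in the text were chosen after their values were seen, for their role in a list, and so was the islet hormone list. Members and lists were chosen with earlier results of these data known. A KO number can cover several genes, and reads of near-identical contigs may be split between them. Some genes that these rules name are not reported here.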

Additional observations from a re-analysis of the deposited data

How the results depend on the processing

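With 1 library per condition no replicate could be left out. No paired analysis was possible because each condition had 1 library and no test was made. Relative to 929 KO sums at least 2-fold higher and 495 lower, DESeq2 size factors gave 608 higher, a minimum of 100 fragments gave 287 lower, and a 4-fold limit gave 219 higher and 118 lower. Relative to 11745 unigenes higher and 7696 lower, a minimum of 100 fragments gave 2483 and 1188 and a 4-fold limit 4315 and 2718, since fewer pass by construction. All other alternatives kept these counts within 1.5 times. Of the 37 list medians none changed sign past its spread; that of cytosolic ribosomal proteins moved with the scaling and that of islet hormones to 5.54 over unigenes. Over clean unigenes, 6 of 135 genes named by rule and past 2-fold turned round: ACACA (0.33), PPARA (-2.13), OGDH (-0.66), the FKBP4 and FKBP5 sum (-0.31), lipin (-0.68) and CYP3A (0.044). Among genes named otherwise, so did GYS2 (-0.17), the phosphatidate phosphatase sum (-0.46) and DIABLO (-0.64). By the most abundant unigene, 139 of 148 stayed past 2-fold and 1 turned round, an egg envelope ZP sum (-0.96). The cause was not tested. At 51 KO sums in normal feeding and 45 in cold stress, the count was at or under 3, so the ratio is a limit.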

Other observations

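Some abundant KO sums that differed at least 4-fold belong to none of the lists and were picked out after their values were seen. The Tob and BTG family sum of antiproliferative factors, led by BTG1, had 17158 fragments in cold stress and 3705 in normal feeding (log2 ratio 2.25), and the adiponectin receptor sum, led by ADIPOR2, which keeps membranes fluid in mammalian and nematode cells, had 8118 in cold stress and 1671 in normal feeding (2.32). A sum whose best hit is tuftelin (TUFT1) had 7920 in cold stress and 791 in normal feeding, 10.3-fold higher. The purine enzyme PNP had 33017 in cold stress and 3614 in normal feeding (3.23). The apoptosis factor DIABLO had 19294 in cold stress and 2721 in normal feeding (2.87). Their most abundant unigenes were higher as well (3.91 for PNP and 3.27 for DIABLO). Clean values were 0.15 and -0.64, but clean unigenes held only 1820 and 447 of these cold stress fragments.

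STEAP4, a metalloreductase of iron and copper uptake, had 4132 fragments in cold stress, 16584 in thermal stress, 3837 in fasting and 30707 in normal feeding, 7.23-fold lower in cold stress. The mitochondrial citrate carrier SLC25A1, which exports the carbon for fatty acid and sterol synthesis, had 836 in cold stress, 549 in thermal stress, 3271 in fasting and 3505 in normal feeding (-2.03). The nucleotide-sugar carrier family member SLC35B1 had 310 in cold stress and 1700 in normal feeding (-2.42). The sialyltransferase ST3GAL1 had 530 in cold stress and 2280 in normal feeding (-2.07). SLC25A48 had 282 in cold stress and 1499 in normal feeding (-2.37).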
